A study of Danio rerio with 10 samples.

Results

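Gene expression in whole zebrafish embryos injected with an Atg7 morpholino was compared with that in embryos injected with a control morpholino, 72 h after fertilization. The arrays were chosen by their titles, 3 of Atg7 morphants and 3 of control morphants, and make up 6 of the 10 arrays analysed. The other 4 were 3 arrays of dual morphants, injected against both Atg7 and Bdh2, and 1 array of Bdh2 morphants. All embryos came from wild-type fish and were injected at the 1- to 2-cell stage, each with 1 to 2 nL of a morpholino solution (130 micromol/L). The labels say no more about the sequence or target of the control morpholino, and the number of embryos behind each RNA sample is not given in the sources used here. The arrays used here include no other Atg7 morpholino, no rescue and no uninjected embryos, so an effect of losing Atg7 and any other effect of that oligonucleotide cannot be told apart. Nothing in the labels says that replicates were separate clutches, so the p-values reflect only sample-to-sample spread, part or all of which could be technical.

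Morpholinos are synthetic antisense oligonucleotides that keep a chosen transcript from being translated or spliced. Atg7 is the activating enzyme of a pair of ubiquitin-like conjugation reactions that together lead to LC3 family proteins being attached to the growing autophagosome membrane. Autophagosomes carry damaged organelles, protein aggregates and excess cytoplasm to the lysosome. Red cell precursors use the pathway to clear mitochondria, and cargo receptors such as the sqstm1 product are themselves degraded along with what they carry. No probe set was named atg7, so the transcript of the targeted gene was not analysed here. The iron-related dehydrogenase gene bdh2 read 7.22, 7.18 and 7.22 in Atg7 morphants and 7.17, 7.07 and 7.27 in control morphants (log2 intensity). Its difference of 0.04 ± 0.07 did not pass the test (adjusted p = 0.797).

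Each array gave 1 log2 intensity per probe set, between 2.48 and 14.9, with array medians between 6.33 and 6.38. Between arrays, Pearson's r over all probe sets lay at 0.997 to 0.998 among Atg7 arrays, 0.998 to 0.999 among control arrays and 0.994 to 0.996 between the groups. The actin control probe sets differed by 3.93 ± 0.11 between their 3 prime and 5 prime ends in Atg7 arrays and by 3.45 ± 0.067 in control arrays (log2, SD, n = 3 each). This difference is a sign of RNA quality and is larger where RNA is less intact. It was 0.47 higher in Atg7 morphants (exact permutation test, two-sided, p = 0.1, the smallest that 3 against 3 can give). The same measure for GAPDH was 1.67 ± 0.12 in Atg7 arrays and 1.58 ± 0.054 in control arrays (exact permutation test, p = 0.4). The part of RNA quality in the results below was not tested.

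Of 15502 probe sets, 1536 (9.91%) passed an adjusted p of 0.05 in Atg7 minus control, 971 (6.26%) higher and 565 (3.64%) lower in Atg7 morphants. Most of these differences were small: 1396 of the 1536 (90.9%) were under 1.5-fold, and 30 (0.194% of all probe sets) reached 2-fold, 23 higher (0.148%) and 7 lower (0.0452%). The arrays of the 2 groups did not overlap in 4707 probe sets, or 30.4%. Of the called probe sets, 1089 carried 1 gene symbol, while 348 of the higher and 99 of the lower ones had none or several. With 1 probe set for each of 8793 named genes, 552 genes (6.28%) were called higher and 362 (4.12%) lower, and the median difference over all genes was -0.01. Counts for gene groups below use these 8793 genes as their background. The groups listed 2405 genes, of which 1461 had a probe set, and 179 of those were called higher and 116 lower. The groups were written with earlier results of these data known. A share of calls in them above that over all genes is therefore a description and not independent evidence.

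**Figure D1:**
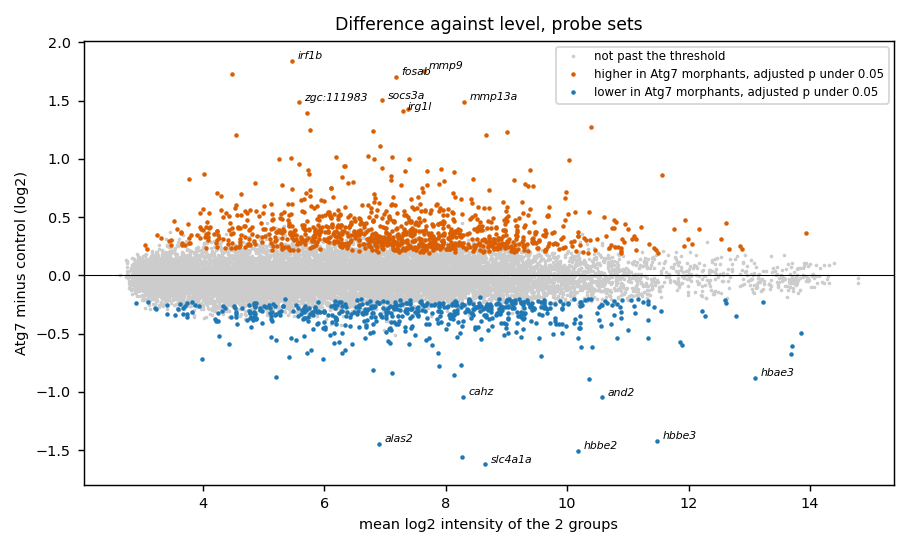
Difference between Atg7 and control morphants (log2, y axis) against the mean log2 intensity of the 2 groups (x axis), 1 point per probe set, with called probe sets in colour. The called points are spread over most of the intensity range, from irf1b at a difference of 1.84 to slc4a1a at -1.62.

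The calls named here fall into a firm and a less firm set. Of 309 called genes named or counted in the gene groups, all 174 with an adjusted p under 0.01 stayed past the threshold when any 1 of the 6 arrays was left out. Of the remaining 135, with an adjusted p between 0.01 and 0.05, 129 lost their call without at least 1 array.

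The gene with the largest rise was irf1b, an interferon regulatory factor. It read 6.31, 6.46 and 6.41 in Atg7 morphants against 4.59, 4.49 and 4.57 in control morphants. The rise was 1.84 ± 0.068 (SE), or 3.58-fold, with an adjusted p of 3.57e-08. The Atg7 arrays of each of the 20 genes with the largest rise lay above all 3 control arrays. The groups did not overlap in 1531 of the 1536 called probe sets, so this adds little to the calls. The differences of these 20 genes ran from 0.94 to 1.84. In order of size after irf1b they were mmp9, fosab, socs3a, mmp13a, zgc:111983, irg1l, rps27l, scamp5a, junba, fn1b, cyp24a1, cyp26a1, fosl2, si:ch73-335l21.4, socs3b, dhrs3a, cryba4, muc5.1 and lnx1. Those with the next largest rises were c6.2 and pkp3a, both at 0.91.

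The gene with the largest fall was slc4a1a, the chloride and bicarbonate exchanger of red cells. It read 7.89, 7.77 and 7.86 in Atg7 morphants and 9.48, 9.45 and 9.46 in control morphants. It fell by 1.62 ± 0.061 on the log2 scale, or 3.08-fold (adjusted p = 3.57e-08). The 20 genes with the largest fall ran from -1.62 to -0.60. In each of them the Atg7 arrays lay below all 3 control arrays, which again adds little to the calls. After slc4a1a came hbbe2, alas2, hbbe3, and2, cahz, hbae3, epb41b, hsp70.3, hoxc13a, rbp2a, gas1b, ucp3, apoa4b.2, orc4, cyp2r1, mitfa, slc27a1a, pvalb3 and pabpc1a. gpib and cox4i1l followed, both at -0.59.

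**Figure D2:**
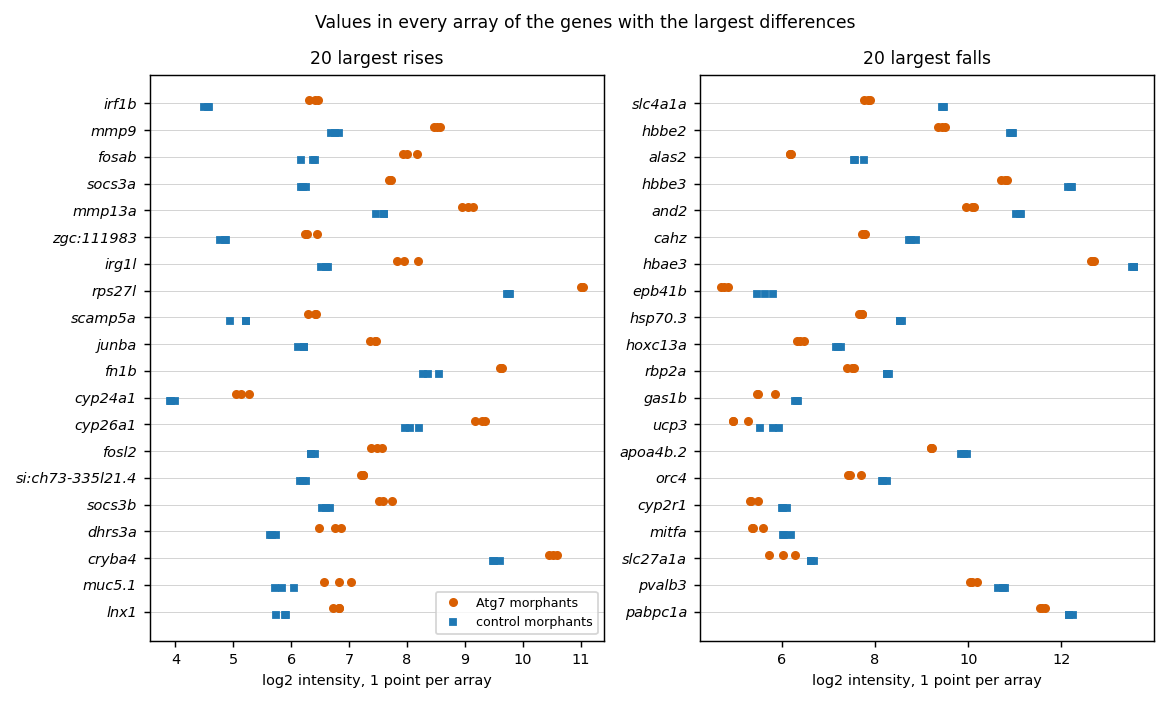
Log2 intensity in every Atg7 array (circles) and control array (squares) for the 20 genes with the largest rise (left panel) and the 20 with the largest fall (right panel). In all 40 genes the circles and squares do not overlap, as in 1531 of the 1536 called probe sets. The gap between the groups is wide next to the spread within them in irf1b and slc4a1a. It is less so in muc5.1 and orc4.

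The globin group, the oxygen carriers of red cells, was the one with the highest share of called genes. Of 5 measured globin genes, 4 fell and 0 rose, and the median difference was -0.68. The embryonic beta globin gene hbbe2 read 9.43, 9.36 and 9.50 in Atg7 morphants and 10.96, 10.94 and 10.91 in control morphants (-1.5 ± 0.060, 2.84-fold lower, adjusted p = 4.18e-08). hbbe3, another embryonic beta globin gene, read 10.78, 10.83 and 10.70 against 12.22, 12.14 and 12.21 in control morphants, a fall of 1.42 ± 0.062. The embryonic alpha globin gene hbae3 read 12.64, 12.63 and 12.70 in Atg7 morphants and 13.55, 13.55 and 13.51 in control morphants (-0.88 ± 0.054), and its other probe set was at -0.68. Among the adult type globin genes, hbba2 averaged 4.94 in Atg7 and 5.33 in control morphants (-0.39, adjusted p = 0.00755), and hbaa1 at -0.34 did not pass. The summed intensity of the 5 genes, on the log2 scale, was 13.64 to 13.68 in Atg7 arrays and 14.49 to 14.54 in control arrays. Globin genes resemble each other in sequence, so any single globin value may include signal from its relatives, which was not tested. In whole embryos, fewer cells of a type and less RNA per cell cannot be told apart.

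Of 19 measured erythroid genes, 8 fell and 0 rose, with a median of -0.21. cahz, the carbonic anhydrase of red cells, read 7.71, 7.78 and 7.77 in Atg7 morphants against 8.74, 8.89 and 8.77 in control morphants (-1.04 ± 0.083, adjusted p = 1.29e-05). epb41b, which encodes a protein of the membrane skeleton, read 4.69, 4.85 and 4.77 in Atg7 morphants and 5.82, 5.65 and 5.46 in control morphants (-0.87 ± 0.091). Among the falls were 2 transcription factor genes of red cell development, gata1a at -0.59 and klf1 at -0.44, named after their values were seen. klf1 lost its call without control replicate 1, control replicate 3 or Atg7 replicate 1 or 2. The transcription factor genes nfe2 and klf17 of the same group were at -0.24 and -0.21 and did not pass. Nor did tal1 and lmo2 of this group pass, at -0.01 and -0.19. tal1 was dim, averaging 4.18 in Atg7 and 4.19 in control morphants.

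Of 13 measured heme synthesis genes, 3 fell (23.1%, against 4.12% over all genes) and 0 rose, with a median of -0.13. alas2, the erythroid enzyme of the first step, read 6.18, 6.18 and 6.20 in Atg7 morphants and 7.57, 7.77 and 7.55 in control morphants (-1.45 ± 0.075, 2.73-fold lower, adjusted p = 4.58e-07). alas1, its counterpart in other tissues, was at -0.13 and did not pass. Further along the pathway urod fell by 0.48 and cpox by 0.24, while alad, uros and fech were at -0.27, -0.13 and -0.22 and did not pass. The call of cpox ended without any array other than Atg7 replicate 3.

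Of 14 measured iron handling genes, 3 rose (21.4%) and 1 fell (7.14%), against 6.28% and 4.12% over all genes. The ferritin heavy chain-like gene fthl28 read 7.42, 7.34 and 7.44 in Atg7 morphants against 6.82, 6.78 and 6.80 in control morphants (0.60 ± 0.060, adjusted p = 8.31e-05). aco1, which encodes the cytosolic aconitase that doubles as an iron regulatory protein, rose by 0.56, and cp, which encodes the plasma ferroxidase ceruloplasmin, by 0.37. slc11a2, the importer of ferrous iron, fell by 0.27. The ferritin gene fth1a at -0.12, the transferrin gene tfa at -0.15 and the iron exporter gene slc40a1 at 0.06 did not pass.

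**Figure D3:**
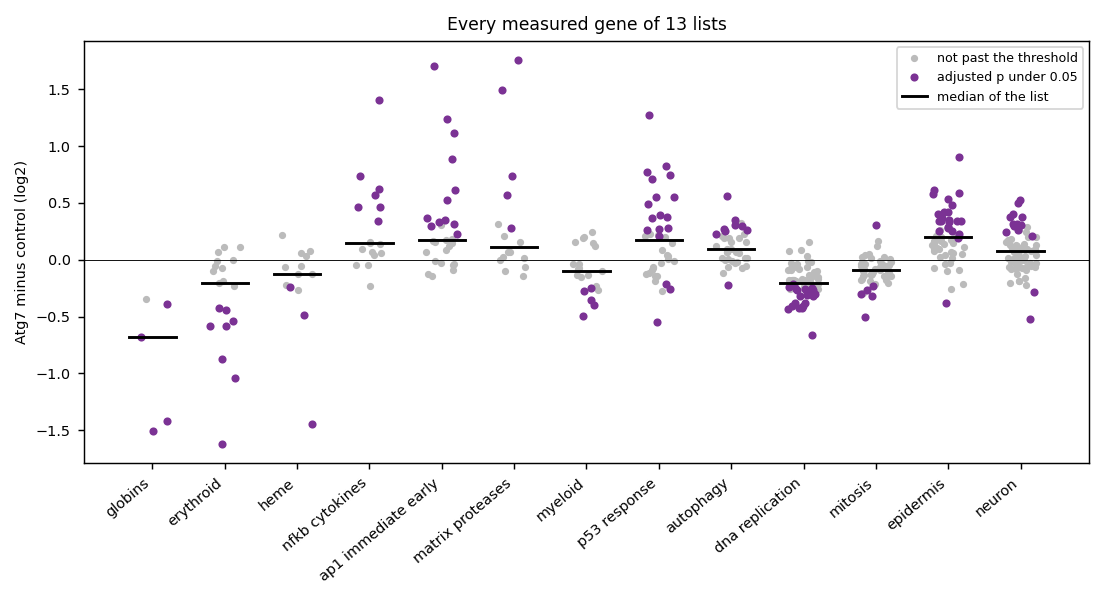
Difference between Atg7 and control morphants (log2, y axis) of every measured gene in 13 gene groups (x axis), with called genes in purple and a bar at each group's median. The globin and DNA replication points lie mostly below 0, at medians of -0.68 and -0.21, and the epidermis and AP-1 points mostly above it, at 0.20 and 0.18.

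Some cytokine feedback genes rose. In the group of JAK-STAT and interferon genes, 6 of 18 rose and 1 fell. socs3a, which encodes an inhibitor induced by and acting on cytokine receptors, read 7.69, 7.70 and 7.73 in Atg7 morphants and 6.16, 6.21 and 6.25 in control morphants (1.5 ± 0.058, 2.83-fold, adjusted p = 3.88e-08). Its paralog socs3b read 7.59, 7.52 and 7.74 against 6.61, 6.66 and 6.53 in control morphants, a rise of 1.01 ± 0.072. stat3, whose product activates socs3 genes in mammals, rose by 0.34, while the kinase gene jak2a fell by 0.33. The feedback genes socs1a and cisha, at -0.03 and 0.12, did not pass, nor did the interferon genes mxa and irf7, at -0.03 and 0.25. The interferon-stimulated genes isg15 and irf9 were at 0.55 and 0.41. Both lost their call without control replicate 3, and irf9 also without Atg7 replicate 1 or Atg7 replicate 2. stat3, isg15, irf9, socs1a, cisha, mxa and irf7 were named after their values were seen.

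AP-1 and other immediate early genes, which are switched on within minutes by stress and growth signals, rose in 12 of 28 cases and fell in 0, with a median of 0.18. fosab, a c-Fos gene, read 7.99, 7.93 and 8.16 in Atg7 morphants and 6.37, 6.42 and 6.18 in control morphants (1.71 ± 0.10, 3.26-fold, adjusted p = 1.7e-06). Its other 3 probe sets were at 1.40, 0.44 and 0.53. The partner gene junba read 7.45, 7.47 and 7.37 against 6.22, 6.21 and 6.12 in control morphants (1.24 ± 0.067). fosl2 rose by 1.11 ± 0.063, and its other probe sets were at 1.01 and 0.58. junbb rose by 0.89 ± 0.070. Also called, and named after their values were seen, were ier2a (0.61), atf3 (0.52) and jun (0.32, or 1.25-fold).

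Matrix proteases and their partners rose in 5 of 16 cases and fell in 0. mmp9, a gelatinase released by neutrophils and by skin cells at wounds, read 8.46, 8.57 and 8.51 in Atg7 morphants and 6.75, 6.83 and 6.69 in control morphants (1.76 ± 0.065, 3.38-fold, adjusted p = 3.57e-08). The collagenase gene mmp13a read 9.06, 8.96 and 9.14 against 7.60, 7.47 and 7.61 in control morphants (1.49 ± 0.081, 2.81-fold). The inhibitor gene timp2b rose with them, by 0.74 ± 0.070. mmp2, another gelatinase gene, was at 0.57 and the plasminogen gene plg at 0.28, both named after their values were seen.

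In the group of NF-kB targets and cytokine genes 7 of 17 rose and 0 fell, and the same counts were obtained without any single array. irg1l, related to the macrophage enzyme that makes itaconate, read 8.20, 7.95 and 7.83 in Atg7 morphants and 6.64, 6.52 and 6.60 in control morphants (1.41 ± 0.087, 2.65-fold). The prostaglandin synthase gene ptgs2a rose by 0.57 and the transcription factor gene cebpd by 0.74. The other probe set of cebpd was at 0.01 and dim, averaging 2.96 in Atg7 and 2.95 in control morphants. nfkbiaa, the inhibitor that NF-kB itself induces, was at 0.46, and nfkb2 at 0.34, both named after their values were seen. Complement and acute phase genes of the liver were mixed. Of 20, 3 rose (c6.2 by 0.91, c4b by 0.55 and the haptoglobin gene hp by 0.38), and c9 fell by 0.23. These were 15% higher and 5% lower, against 6.28% and 4.12% over all genes. The group's count of falls became 0 without control replicate 2, control replicate 3 or Atg7 replicate 1, and the call of c9 also ended without control replicate 1 or Atg7 replicate 3.

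White cells, which carry many such genes, were followed through their markers. Of 21 measured neutrophil and macrophage markers, 5 fell (23.8%, against 4.12% over all genes) and 0 rose. The lysozyme gene lyz read 9.64, 9.65 and 9.69 in Atg7 morphants and 10.21, 10.14 and 10.12 in control morphants (-0.50 ± 0.058, adjusted p = 0.000249). The leukocyte actin-bundling gene lcp1 fell by 0.40. The neutrophil peroxidase gene mpx fell by 0.35 in the probe set used, while its other 3 probe sets were at 0.01, -0.16 and 0.00. Those at 0.01 and 0.00 were dim, averaging 3.84 and 3.13 in Atg7 morphants. The macrophage genes csf1ra and marco had differences of -0.13 and 0.24 and did not pass. The summed level of the 21 markers was 12.06 to 12.10 in Atg7 arrays and 12.21 to 12.25 in control arrays (log2). Bright genes weigh most in this sum. The median difference was -0.10, with 6 markers above 0 and 15 below. The count of 5 falls became 3 without control replicate 1, control replicate 3 or Atg7 replicate 2. In the other direction, 1 marker was called higher without control replicate 2 or Atg7 replicate 1. Of 11 lymphoid markers, ikzf1 (-0.39) and cd74b (-0.31) fell and 0 rose. Both were dim, ikzf1 averaging 4.02 in Atg7 and 4.41 in control morphants, and cd74b 4.39 and 4.70. The 2 falls became 1 without control replicate 1, control replicate 2 or Atg7 replicate 1, with 1 rise without control replicate 1. The part of white cell number in the inflammatory rises was not tested.

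Targets of p53, the transcription factor that answers DNA damage and is also known to respond to some morpholinos independently of their target, rose in 15 of 38 cases and fell in 3. rps27l, a p53 target that encodes a ribosomal protein-like product, read 11.0444, 11.0278 and 10.9996 in Atg7 morphants and 9.76, 9.78 and 9.72 in control morphants (1.27 ± 0.058, 2.41-fold, adjusted p = 1.33e-07). phlda3, an inhibitor of Akt signalling, read 7.53, 7.49 and 7.48 against 6.75, 6.62 and 6.67 in control morphants (0.82 ± 0.058). The initiator caspase gene casp8 rose by 0.75 ± 0.071. Classical targets were among the further calls, named after their values were seen: gadd45aa at 0.77, mdm2 at 0.71, ccng1 at 0.40 and baxa at 0.21, the last of which lost its call without each of the 6 arrays. mdm2, the p53 ubiquitin ligase, read 8.59, 8.43 and 8.42 in Atg7 morphants and 7.61, 7.77 and 7.92 in control morphants. rrm2b, also a p53 target in mammals, fell by 0.55, and mdm4 and pcna fell by 0.26 and 0.21. The 3 falls became 1 without any single control array or without Atg7 replicate 1.

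The apoptosis group had 6 of 32 genes higher (18.8%, against 6.28% over all genes) and 0 lower. Besides casp8, the survival gene mcl1b rose by 0.49 and the BH3-only gene bada by 0.38. The count became 3 without control replicate 2, control replicate 3 or Atg7 replicate 2.

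Genes of autophagy, the process in which Atg7 acts, rose in 8 of 36 cases (22.2%) and fell in 1 (2.78%). Over all genes these shares were 6.28% and 4.12%. Of the 36, 27 lay above 0, with a median of 0.09. sqstm1, the main receptor for ubiquitin-tagged cargo, read 8.29, 8.18 and 8.25 in Atg7 morphants and 7.66, 7.76 and 7.61 in control morphants (0.56 ± 0.064, 1.47-fold, adjusted p = 0.000218). nbr1a, a related receptor gene, read 7.92, 7.88 and 7.90 against 7.52, 7.54 and 7.60 in control morphants (0.34 ± 0.060). The mitophagy receptor family gene bnip4 rose by 0.30, and map1lc3a, which encodes the LC3 protein that Atg7 helps conjugate, was at 0.30 (named after its values were seen). pik3c3, the lipid kinase gene that acts at the start of autophagosome formation, fell by 0.22. The partners of Atg7 in conjugation were close to 0 or did not pass, with atg3 at 0.06, atg12 at 0.01 and atg5 at 0.21. The calls of sqstm1 and nbr1a held without any single array, but the count of 8 became 2 without control replicate 2 or control replicate 3, 5 without Atg7 replicate 1 or 3, and 4 without Atg7 replicate 2. The fall of pik3c3 remained only without Atg7 replicate 1.

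Lysosome genes rose in 6 of 45 cases (13.3%) and fell in 2 (4.44%), against 6.28% and 4.12% over all genes. The protease genes led: ctsba read 9.48, 9.64 and 9.48 in Atg7 morphants and 8.75, 8.71 and 8.69 in control morphants (0.82 ± 0.062, adjusted p = 9.08e-06), ctsll rose by 0.65 and ctsf by 0.42. The cathepsin S gene ctss2.1, also counted among the myeloid markers, fell by 0.25. mitfa, which the group holds because its family activates lysosome genes, fell by 0.64 and is described with the pigment cells. The 2 falls became 1 without control replicate 1, control replicate 3 or Atg7 replicate 1 or 2.

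DNA replication genes fell in 22 of 61 cases and rose in 0, with a median of -0.21, and 57 of the 61 lay below 0. orc4, a subunit of the complex that marks replication origins, read 7.46, 7.71 and 7.43 in Atg7 morphants and 8.27, 8.17 and 8.15 in control morphants (-0.67 ± 0.085, 1.59-fold lower, adjusted p = 0.000509). mcm7, a subunit of the replicative helicase, read 10.29, 10.32 and 10.40 against 10.81, 10.78 and 10.72 in control morphants (-0.44 ± 0.064). Further helicase subunit genes fell by similar amounts, namely mcm5 by 0.41, mcm4 by 0.42, mcm3 by 0.41 and mcm2 by 0.32, all named after their values were seen. The ribonucleotide reductase gene rrm1 fell by 0.42. The count became 12 without control replicate 1 and 13 without control replicate 2. The summed level of the group was 15.03 to 15.05 in Atg7 arrays and 15.26 in all 3 control arrays (log2).

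Of 50 mitosis genes, 5 fell (10%) and 1 rose (2%), against 4.12% and 6.28% over all genes. Of the 50, 41 lay below 0, with a median of -0.09. The kinesin gene kif20a read 9.47, 9.44 and 9.65 in Atg7 morphants and 9.98, 10.04 and 10.04 in control morphants (-0.50 ± 0.077), and fbxo5 and melk fell by 0.30 and 0.32. The other probe set of melk was at -0.09. ect2, a regulator of cytokinesis, rose by 0.30. The 5 falls became 3 without control replicate 1 or Atg7 replicate 3 and 2 without control replicate 3.

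Genes of retinoic acid, the vitamin A derivative that patterns the hindbrain and trunk, changed in both directions. Of 23 measured, 5 rose (21.7%) and 2 fell (8.70%), against 6.28% and 4.12% over all genes. cyp26a1, the enzyme that degrades retinoic acid and is induced by it, read 9.29, 9.35 and 9.18 in Atg7 morphants and 8.20, 8.05 and 7.96 in control morphants (1.2 ± 0.080, 2.3-fold, adjusted p = 3.34e-06). dhrs3a, which turns retinaldehyde back into retinol, read 6.85, 6.48 and 6.75 against 5.74, 5.63 and 5.67 in control morphants (1.01 ± 0.089). cyp26b1 rose by 0.39 in the probe set used, and its other 3 were at 0.00, 0.52 and 0.04. The carrier genes split: crabp2a was at 0.37 (named after its values were seen) and rbp4 rose by 0.31, whereas rbp2a, the retinol-binding protein of the intestine, fell by 0.78 ± 0.067 and rbp4l by 0.30. The fall of rbp4l ended without control replicate 2.

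A pair of vitamin D enzymes moved in opposite directions. cyp24a1, which inactivates vitamin D, read 5.27, 5.05 and 5.14 in Atg7 morphants and 3.99, 3.91 and 3.93 in control morphants (1.21 ± 0.10, adjusted p = 2.57e-05). Its other probe set was at -0.01 and did not pass, so the rise rests on 1 of 2 probe sets. cyp2r1, which carries out the first activating hydroxylation, read 5.35, 5.49 and 5.31 in Atg7 morphants and 6.01, 6.02 and 6.11 in control morphants (-0.66 ± 0.080).

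Hox genes, which set position along the body axis in the order of their paralog groups, rose in 8 of 42 cases and fell in 1. These were 19.0% higher and 2.38% lower, against 6.28% and 4.12% over all genes. hoxb5b read 7.44, 7.54 and 7.43 in Atg7 morphants and 6.87, 6.80 and 6.94 in control morphants (0.60 ± 0.061, adjusted p = 9.27e-05), and hoxb6b and hoxb5a rose by 0.55 and 0.45. hoxc13a, of the most posterior group, read 6.32, 6.47 and 6.40 in Atg7 morphants and 7.16, 7.21 and 7.27 in control morphants (-0.82 ± 0.081, adjusted p = 8.11e-05). By paralog group, an order looked at after the values were seen, all 8 rises were in groups 3 to 6, where 15 of 16 genes lay above 0 with a median of 0.28. In groups 10 to 13, 11 of 12 lay below 0 with a median of -0.15. Groups 1 to 2 and 7 to 9, with 5 and 9 measured genes, had 0 calls, and their medians were both 0.07. Over all genes, 4115 lay above 0 and 4678 below. The 8 rises became 5 without control replicate 1, control replicate 2 or Atg7 replicate 2 or 3, and hoxc13a was joined by a further fall without Atg7 replicate 2. Tailbud and segmentation genes, 28 in number, had shares near those over all genes. They had 1 rise (dlc, 0.24, other probe sets 0.01 and -0.06, not called) and 1 fall (hes6, -0.21). Both counts became 0 without control replicate 1, 2 or 3 or Atg7 replicate 1. The rises were also 0 without Atg7 replicate 3 and 2 without Atg7 replicate 2, and the falls 0 without Atg7 replicate 2.

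**Figure D4:**
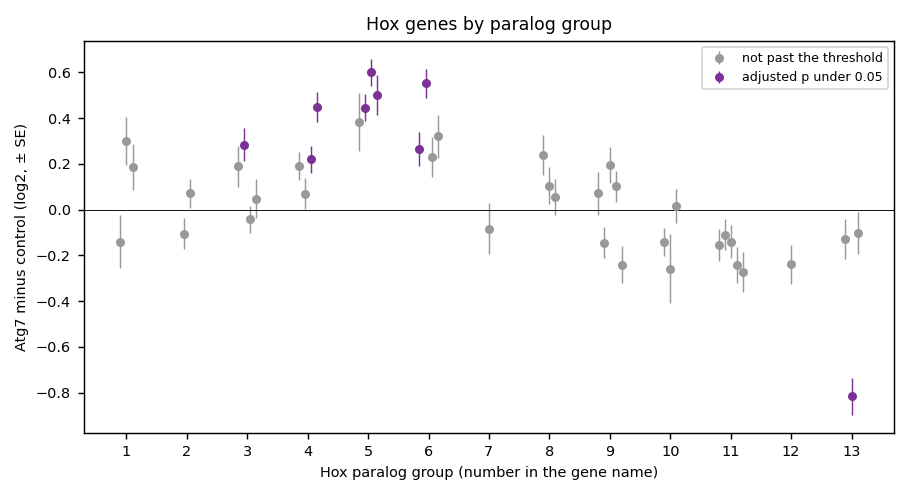
Difference between Atg7 and control morphants (log2 ± SE, y axis) of the 42 measured Hox genes by paralog group (x axis), with called genes in purple. Groups 3 to 6 lie mostly above 0, and groups 10 to 13 mostly below it, with hoxc13a lowest at -0.82.

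Skin genes rose in large number and by small amounts. In the epidermis group, 22 of 59 genes rose and 1 fell, and 51 lay above 0, with a median of 0.20. The plakophilin gene pkp3a, for a plaque protein of desmosomes, read 9.79, 9.90 and 9.86 in Atg7 morphants and 9.09, 9.06 and 8.68 in control morphants (0.91 ± 0.094, 1.87-fold). anxa2a, an annexin gene, rose by 0.59 ± 0.055. The desmosomal cadherin gene dsg2.1 rose by 0.58, but its other 2 probe sets were at -0.24 and 0.10. These 2 were dimmer, averaging 4.77 and 3.24 in Atg7 morphants, against 7.81 for the probe set used. The keratin genes did not move as 1 block: krt97 fell by 0.38 ± 0.055, while krt1-19e, krt15 and krt91 were at 0.42, 0.34 and 0.34 (named after their values were seen). The 22 rises became 14 without control replicate 2, 12 without control replicate 3 and 13 without Atg7 replicate 1. The 1 fall became 2 without Atg7 replicate 1 or Atg7 replicate 2. The mucin gene muc5.1, a product of secretory cells, read 7.04, 6.56 and 6.83 against 5.72, 5.84 and 6.05 in control morphants (0.94 ± 0.115), and its other probe set was at 0.58.

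Fin fold and matrix genes changed in both directions, with a median of 0.01 and with 23 above 0 and 20 below. Of 43, 5 rose (11.6%) and 3 fell (6.98%), against 6.28% and 4.12% over all genes. The falls were the actinodin genes, which encode the fibres that stiffen the larval fin fold. and2 read 9.95, 10.08 and 10.12 in Atg7 morphants and 11.14, 11.12 and 11.03 in control morphants (-1.05 ± 0.067, 2.07-fold lower, adjusted p = 2.18e-06). and1 and and3 fell by 0.47 and 0.41, and all 3 falls held without any single array. The fibronectin gene fn1b read 9.63, 9.61 and 9.64 in Atg7 morphants and 8.36, 8.55 and 8.28 in control morphants (1.23 ± 0.090, 2.35-fold). frem3, which encodes a basement membrane protein, rose by 0.80, and itga5, the fibronectin receptor subunit gene, by 0.45. The 5 rises became 3 without control replicate 2.

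Genes of the cytoskeleton and wound response overlapped with these groups. Of 51, 14 rose and 1 fell, the leukocyte gene lcp1 given above. The called genes with the smallest p were junba, fn1b and junbb, and hbegfa, a growth factor released at wounds, was at 0.55 (named after its values were seen). The count became 8 without control replicate 2. Cartilage and bone genes had shares near those over all genes. Of 39, 2 were higher (col2a1a by 0.27 and col11a1a by 0.22) and 1 lower (runx2a by 0.26, other probe set at -0.14 and not called). The call of each of them ended without some array, for runx2a and col11a1a without every one of the 6. The count of 2 rises became 0 without control replicate 1 or control replicate 2 and 1 without control replicate 3 or Atg7 replicate 1 or 2.

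Neuronal genes rose in 12 of 70 cases (17.1%) and fell in 2 (2.86%), against 6.28% and 4.12% over all genes. Their median was 0.08. neurod6a, a transcription factor gene of differentiated neurons, read 6.49, 6.34 and 6.45 in Atg7 morphants and 5.88, 5.91 and 5.89 in control morphants (0.53 ± 0.061). The RNA-binding protein gene elavl3, an early marker of neurons, read 10.80, 10.84 and 10.90 against 10.32, 10.38 and 10.33 in control morphants (0.50 ± 0.061), and its other 3 probe sets were at 0.19, 0.51 and 0.26. elavl4 rose by 0.38. The falls were atoh1a by 0.52 ± 0.075 and ascl1b by 0.28, both transcription factor genes of neural precursors. The 12 rises became 7 without control replicate 2 or control replicate 3, and the 2 falls became 1 without control replicate 1.

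Glial and progenitor genes were divided, with 8 of 34 higher (23.5%) and 4 lower (11.8%), against 6.28% and 4.12% over all genes. Rises were seen for s100b (0.53), msi2b (0.41) and the glutamate transporter gene slc1a2b (0.26), and falls for her4.2 (-0.39), sox19b (-0.29) and gfap (-0.27). These calls were among the least firm. The rises became 2 without control replicate 1 or Atg7 replicate 1 or 2 and 3 without control replicate 2 or 3. The falls became 0 without control replicate 2 or control replicate 3, 1 without control replicate 1 or Atg7 replicate 2, and 2 without Atg7 replicate 1 or 3.

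In the eye, both retinal and lens genes were counted. Of 50 retinal genes, 6 rose (12%) and 2 fell (4%), against 6.28% and 4.12% over all genes. Of the 50, 22 lay above 0 and 28 below, with a median of -0.01. The bipolar cell gene vsx1 rose by 0.50, the visual cycle gene rpe65a by 0.41 in 1 of its 2 probe sets (the other was at -0.13) and the photoreceptor gene crx by 0.30. The falls were mitfa and rbp4l. The 6 rises became 2 without control replicate 1, control replicate 2 or Atg7 replicate 1 or 2 and 3 without control replicate 3, and the 2 falls became 1 without control replicate 2. Of 13 lens genes, 4 rose and 0 fell, while 7 lay above 0 and 6 below, with a median of 0.16. The crystallin gene cryba4 read 10.44, 10.52 and 10.59 in Atg7 morphants and 9.50, 9.48 and 9.60 in control morphants (0.99 ± 0.063, 1.99-fold, adjusted p = 2.17e-06). crygmxl2 rose by 0.76 and the klotho family gene lctla by 0.62. A single fall was called without Atg7 replicate 3. The summed level of the 13 lens genes, in which bright genes weigh most, was 11.61 to 11.70 in Atg7 arrays and 10.93 to 11.02 in control arrays (log2).

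Pigment cell and purine synthesis genes fell in 8 of 29 cases (27.6%) and rose in 2 (6.90%), against 4.12% and 6.28% over all genes. mitfa, the regulator of melanocyte development, read 5.37, 5.38 and 5.61 in Atg7 morphants and 6.05, 6.04 and 6.20 in control morphants (-0.64 ± 0.076, adjusted p = 0.00027). gart, an enzyme of purine synthesis that pigment cells of several kinds need, fell by 0.42. slc2a15b, a transporter gene of the yellow and white pigment cells, fell by 0.34 (other probe set -0.18, not called). paics, of the same purine pathway, rose by 0.25 and tfap2a, a neural crest regulator, by 0.31. The 8 falls became 5 without control replicate 1 or Atg7 replicate 2 or 3 and 4 without control replicate 3 or Atg7 replicate 1. The 2 rises became 1 without control replicate 2, control replicate 3 or Atg7 replicate 3.

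Skeletal muscle genes fell in 9 of 60 cases (15.0%) and rose in 4 (6.67%), against 4.12% and 6.28% over all genes. The share of rises was thus near that over all genes. pvalb3, a parvalbumin gene of fast muscle, read 10.04, 10.08 and 10.20 in Atg7 morphants and 10.78, 10.75 and 10.64 in control morphants (-0.62 ± 0.065). ldb3a, for a protein of the Z disc, fell by 0.36 and the calcium pump gene atp2a1l by 0.44. xirp1, which encodes an actin-binding repeat protein, rose by 0.60 ± 0.074 and the titin gene ttn.2 by 0.40. The other 3 probe sets of ttn.2 were at 0.01, -0.01 and 0.29. The one at 0.29 was also called, while those at 0.01 and -0.01 were dim, averaging 3.93 and 2.88 in Atg7 morphants. The muscle differentiation gene myog rose by 0.33. The 4 rises became 2 without control replicate 1, control replicate 2 or Atg7 replicate 1 or 2. Of 19 cardiac genes, ttn.2, hand2 (0.21) and myh7 (0.26) rose and 0 fell. These rises were 15.8% of the cardiac group, against 6.28% over all genes. Just 1 call was left without control replicate 1, control replicate 2 or Atg7 replicate 1.

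Heat shock and chaperone genes fell in 10 of 48 cases (20.8%) and rose in 2 (4.17%), against 4.12% and 6.28% over all genes. hsp70.3, an inducible chaperone gene, read 7.73, 7.65 and 7.73 in Atg7 morphants and 8.55, 8.53 and 8.59 in control morphants (-0.85 ± 0.067, 1.81-fold lower, adjusted p = 1.16e-05). hsp90aa1.1 fell by 0.26 and st13 by 0.31. dnajb6b and hspb8 rose by 0.35 and 0.26. The 10 falls became 3 without control replicate 1 or Atg7 replicate 3, 4 without control replicate 2 and 5 without control replicate 3 or Atg7 replicate 2, and 1 of the 2 rises was left without any array other than Atg7 replicate 3. In the group of endoplasmic reticulum stress and ATF4 genes, 2 of 48 rose, cebpb by 0.62 and atf4b by 0.52. Falls numbered 4, among them the one-carbon and serine enzymes mthfd2 (-0.32) and phgdh (-0.29) and the chaperone gene dnajc3a (-0.23). The shares were 4.17% higher and 8.33% lower, against 6.28% and 4.12% over all genes. The 4 falls became 2 without control replicate 1, control replicate 2 or Atg7 replicate 3 and 1 without control replicate 3 or Atg7 replicate 2, and the 2 rises became 4 without Atg7 replicate 3.

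The respiratory chain had 0 of 67 higher and 2 lower, ndufb8 at -0.54 and cox6b1 at -0.53. The fall of cox4i1l, given above, was not counted in this group. The proteasome had 0 of 45 higher and 1 lower, the assembly factor gene psmg2 at -0.33. These falls were 2.99% and 2.22% of the measured genes, against 4.12% lower over all genes. The proteasome count became 2 without control replicate 3. Ribosome biogenesis had shares near those over all genes, with 2 of 43 higher (utp3, 0.35, and mphosph10, 0.31) and 2 lower (ddx21, -0.53, and nol11, -0.27). Its 2 rises became 0 without control replicate 2 and 1 without control replicate 3 or Atg7 replicate 1 or 2.

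Of 47 glycolysis and hypoxia genes, 3 rose (6.38%) and 4 fell (8.51%), against 6.28% and 4.12% over all genes. The falls were gpib at -0.59 ± 0.066, the glycogen phosphorylase gene pygl at -0.51, the phosphoglucomutase gene pgm1 at -0.41 and the pyruvate kinase gene pklr at -0.33 (the last named after its values were seen). igfbp1a and igfbp1b, inhibitors of insulin-like growth factors, rose by 0.51 and 0.38, and pfkfb3 by 0.51 in 1 of 2 probe sets (the other was at -0.15). The 3 rises became 1 without control replicate 2. Of 31 fat oxidation genes, cpt1b rose by 0.42 and fabp2 and slc27a2a fell by 0.54 and 0.41. These were 3.23% higher and 6.45% lower, against 6.28% and 4.12% over all genes. The rise of cpt1b was lost without control replicate 1 or 3 and without Atg7 replicate 1 or 2. The uncoupling protein gene ucp3 fell by 0.70 and the fatty acid transporter gene slc27a1a by 0.64. Sterol synthesis and lipoprotein genes numbered 23, with msmo1 (0.71), insig1 (0.37, other probe sets -0.05 and 0.14) and acaca (0.24) among 4 rises. acat2 (-0.29) and mttp (-0.31) were the 2 falls. These were 17.4% higher and 8.70% lower, against 6.28% and 4.12% over all genes. The rises became 2 without control replicate 2 or Atg7 replicate 2 or 3 and 1 without control replicate 3, and the falls 1 without any array other than Atg7 replicate 3.

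Antioxidant genes rose in 5 of 33 cases (15.2%, against 6.28% over all genes) and fell in 0. nfe2l2a, the main regulator of the response to oxidants, read 7.54, 7.48 and 7.40 in Atg7 morphants and 6.79, 7.04 and 6.98 in control morphants (0.53 ± 0.073, adjusted p = 0.000783), and its other probe set was at 0.18. Its target nqo1 rose by 0.42 and tktb by 0.31. The count became 3 without control replicate 2, control replicate 3 or Atg7 replicate 2, and 1 fall was called without Atg7 replicate 1. The xenobiotic group had 1 of 12 higher, the cytochrome gene cyp3c1 at 0.45, and 0 lower, or 1 lower without control replicate 1. Its rise was 8.33% of the group, near the 6.28% over all genes.

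Of 34 exocrine and intestinal genes, 3 fell (8.82%) and 1 rose (2.94%), against 4.12% and 6.28% over all genes. rbp2a, given above, and fabp2 are lipid carriers of the absorptive cells, and fabp2 read 11.08, 11.06 and 11.05 in Atg7 morphants and 11.63, 11.59 and 11.59 in control morphants (-0.54 ± 0.054, adjusted p = 8.77e-05). The pancreatic enzyme gene cpa5 fell by 0.40. The summed level of the group, in which bright genes weigh most, was 14.30 to 14.34 in Atg7 arrays and 14.51 to 14.55 in control arrays (log2). The median difference was -0.06, with 10 genes above 0 and 24 below. The 3 falls became 5 without Atg7 replicate 3, and the 1 rise, of cldn15la (0.37), became 0 without control replicate 2 or control replicate 3. Of 36 liver genes, 4 rose and 2 fell, with cp, rbp4 and pck1 (0.32) higher and apoa4a (-0.53) and fbp1b (-0.31) lower. The shares were 11.1% higher and 5.56% lower, against 6.28% and 4.12% over all genes. The 4 rises became 2 without control replicate 2 or Atg7 replicate 3. apoa4b.2, a further apolipoprotein gene, was at -0.69 in 1 probe set and -0.16 in the brighter other one, which did not pass.

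Of 35 hormone genes, prl (0.40), sst2 (0.37) and neurod1 (0.37) were among 4 rises, and fkbp5, a glucocorticoid target, was the 1 fall (-0.32). These were 11.4% higher and 2.86% lower, against 6.28% and 4.12% over all genes. The rises became 2 without any array other than control replicate 1, and the fall was lost without control replicate 2 or 3 and without Atg7 replicate 2 or 3, while 2 fell without control replicate 1. Among 28 circadian genes, with shares near those over all genes, bhlhe40 rose by 0.30 and bmal2 fell by 0.31 (other probe set -0.05, not called). The call of bhlhe40 ended without control replicate 2, and that of bmal2 without control replicate 1, control replicate 3 or Atg7 replicate 2, while 2 rose without Atg7 replicate 1. Kidney and endothelial groups each had 1 rise and 0 falls, hnf1bb (0.51) among 15 and plvapb (0.34) among 22. The rises were 6.67% and 4.55% of the measured genes, near the 6.28% over all genes. The kidney count became 2 without control replicate 1 or Atg7 replicate 2, and plvapb lost its call without control replicate 3 or Atg7 replicate 1 or 2, the last of which gave 1 fall.

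**Figure D5:**
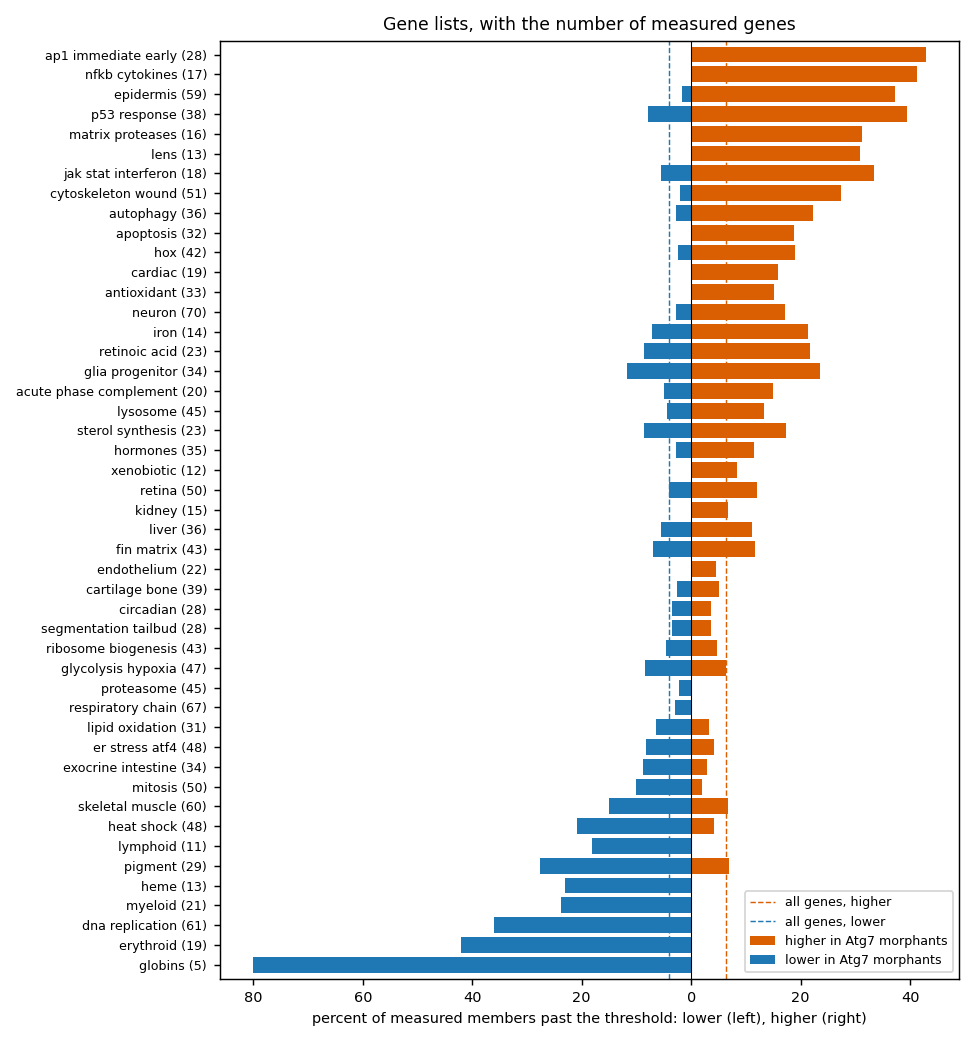
Percent of the measured genes of each of the 47 groups that were called higher (right, orange) or lower (left, blue) in Atg7 morphants, with the number measured in brackets and dashed lines at the shares over all genes, 6.28% higher and 4.12% lower. The AP-1 and NF-kB groups head the list with 42.9% and 41.2% higher, and the globin group stands at the foot with 80.0% lower. The groups were written with earlier results of these data known.

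A number of the genes with the largest changes belong to none of these groups. scamp5a, a gene of secretory membrane traffic, read 6.41, 6.43 and 6.29 in Atg7 morphants and 4.95, 5.23 and 5.23 in control morphants (1.24 ± 0.084, 2.37-fold). lnx1, a ubiquitin ligase gene, rose by 0.94 ± 0.076. zgc:111983 and si:ch73-335l21.4, given without a role, rose by 1.49 and 1.03. gas1b, of a family of Hedgehog co-receptors, fell by 0.71 ± 0.092, and pabpc1a, which encodes the poly(A)-binding protein, by 0.60, with its other probe sets at -0.45 and -0.35. In all, 619 called genes were in no group.

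Probe sets of the same gene seldom disagreed in direction when called. Of 1539 genes with more than 1 probe set, 275 had at least 1 called, 70 had at least 2 called the same way and 0 had calls in opposite directions. In 205 of the 275, however, just 1 probe set was called. Probe sets whose suffix marks probes shared by several transcripts, of the same gene or of different genes, numbered 917. Of these, 115 were called, against 1536 of all 15502 probe sets (9.91%). Among the genes with the largest changes they read irf1b, fosab, mmp13a, zgc:111983, cryba4, hbae3, hsp70.3 and pabpc1a. Those values may include other transcripts of the same gene or, for some suffixes, of related genes.

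The dual morphants received the Atg7 and the Bdh2 morpholino together, and their values are set beside those of the Atg7 morphants for a few of the genes above. Both comparisons use the same 3 control arrays, and 32.5% of all probe sets were called in dual minus control. slc4a1a was at -1.62 in Atg7 minus control and -1.80 in dual minus control. The heme enzyme gene alas2 was at -1.45 in Atg7 and -1.90 in dual morphants, and the actinodin gene and2 at -1.05 in Atg7 and -1.81 in dual morphants. cyp26a1, the retinoic acid hydroxylase gene, was at 1.2 in Atg7 and 2.08 in dual morphants. The gelatinase gene mmp9 was at 1.76 in Atg7 and -0.83 in dual morphants, and socs3a at 1.5 in Atg7 and 0.21 in dual morphants. The p53 target rps27l was at 1.27 in Atg7 and -0.55 in dual morphants. The chaperone gene hsp70.3 was at -0.85 in Atg7 and 2.89 in dual morphants. These genes thus include some with larger, some with smaller and some with opposite values in dual than in Atg7 morphants. The single Bdh2 array minus control was at -1.84 for slc4a1a, -1.49 for alas2, -2.89 for and2 and 1.91 for cyp26a1. For mmp9, socs3a, rps27l and hsp70.3 it was at -0.64, 0.28, -0.06 and 2.54. The part of the Bdh2 morpholino alone in the dual values was not tested. The test of whether the effect of the Atg7 morpholino differed with the Bdh2 morpholino called 8.13% of all probe sets, and rests on the single Bdh2 array.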

How the data were processed

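RNA of whole embryos was measured on 1-colour Affymetrix zebrafish arrays. The authors deposited log2 intensities, 1 per probe set; Affymetrix Expression Console is named in the submitters' processing notes, but how probes were summarised and arrays normalized is not given in the sources used here. The log2 scale was inferred from the range of the values. A common level across arrays hides a shift of all transcripts in 1 direction. No detection calls were used, and the number of arrays limits the precision.

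Of 15617 probe sets, 115 AFFX controls were left out and no filter on low values was applied. The platform annotation gave 1 symbol for 10795 of the tested probe sets, several for 135 and none for 4572. Symbols of 10711 were updated through Entrez IDs to the RefSeq table of GRCz12tu, from which no coordinate was taken. All 10 arrays were fitted in 4 groups with limma 3.58.1 (lmFit, eBayes) in R 4.3.3, with 6 residual degrees of freedom, 2 each from the Atg7, control and dual groups, so the dual arrays share in the estimate of spread and the single Bdh2 array adds nothing to it. P-values were two-sided, adjusted by Benjamini-Hochberg over 15502 probe sets. An adjusted p under 0.05 counted as called. The same code was tested on simulated data.

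The comparison, the 47 gene groups and the rule for named genes were chosen with earlier results of these data known. Groups use 1 probe set per gene, chosen for the brightest average across all 10 arrays. A few group entries that a synonym tied to another gene were dropped after the match was seen. Named genes are the 20 with the largest rise and the 20 with the largest fall past the threshold, by their largest probe set, up to 3 members per group and direction with the smallest p, and bdh2. The table of sequences needed for promoters was not used here, and promoter motifs were not described.

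Alternatives were each array left out, the replicate number as a block, the 6 arrays alone, quantile normalization, centring on the median, dim probe sets left out, an intensity trend with robust spread, and no moderation of the spread.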

Additional observations from a re-analysis of the deposited data

Results flagged for a closer look

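The difference that goes with the Atg7 morpholino was itself compared between embryos with and without the Bdh2 morpholino, as (dual minus Bdh2) minus (Atg7 minus control). Of the 40 genes with the largest changes in Atg7 morphants, 34 differed at an adjusted p under 0.05 (limma), where 8.13% of all probe sets did. The contrast rests on the lone Bdh2 array, which has no replicate. The genes were also chosen for an extreme Atg7 minus control, which enters the contrast with the opposite sign. Neither the count nor the signs given below are therefore independent evidence.

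All 18 of the genes that rose and differed had negative values on the log2 scale, meaning a smaller or opposite change with the Bdh2 morpholino: irf1b (-1.93), mmp9 (-1.95), fosab (-2.43), socs3a (-1.56), mmp13a (-1.17), zgc:111983 (-1.61), irg1l (-1.19), rps27l (-1.76), scamp5a (-1.30), junba (-1.80), fn1b (-1.18), cyp24a1 (-2.06), cyp26a1 (-1.04), fosl2 (-1.13), si:ch73-335l21.4 (-1.61), socs3b (-1.12), dhrs3a (-0.95) and lnx1 (-0.68). fosab read 7.27, 7.62 and 7.63 in dual morphants, against 8.23 in the Bdh2 array. The 16 that fell and differed had positive values: slc4a1a (1.66), hbbe2 (1.89), alas2 (1.04), hbbe3 (0.88), and2 (2.13), cahz (0.71), hbae3 (0.86), epb41b (0.68), hsp70.3 (1.20), hoxc13a (0.80), rbp2a (1.32), gas1b (0.68), apoa4b.2 (0.55), cyp2r1 (1.00), slc27a1a (0.77) and pvalb3 (1.04). and2 read 9.28, 9.22 and 9.36 in dual morphants, against 8.20 in the Bdh2 array. The remaining 6, cryba4, muc5.1, ucp3, orc4, mitfa and pabpc1a, did not pass, with values between -0.11 and 0.30.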

How the results depend on the processing

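The 971 rises and 565 falls depended on the setting more than the largest changes did. Leaving out single arrays gave 537 to 722 rises and 274 to 463 falls, the lowest of each without control replicate 2. Each of these fits also had fewer degrees of freedom, and the part of this in the lower counts was not tested. An intensity trend with robust spread gave 852 falls and 1259 rises. The other settings gave 687 to 1100 rises and 422 to 759 falls, apart from the replicate block. With the replicate number as a block in the fit, 661 rose and 345 fell, of which 651 and 340 were called the same way without it. The numbers were not taken to pair the samples, since the labels state no pairing. Deviations from the group means correlated at 0.20, -0.10 and 0.18 between Atg7 and control arrays of the same number. Between arrays of different numbers they correlated at -0.28 to 0.15. Whether the numbers mark pairs was not tested. The share of rises among the calls was 63.2%, 55.8% after quantile normalization and 53.3% after centring on the median. Calls of at least 2-fold numbered 30, and 25 to 32 over all settings and arrays left out. Of 177 named genes, 126 kept their call and direction in all 13 alternatives, and 47 changed without some array. The difference of bdh2 ran from -0.014, without control replicate 2, to 0.086. Of the 40 genes compared between embryos with and without the Bdh2 morpholino, 32 to 35 differed in every alternative run, 32 with the replicate block. Promoter motifs were not run. Probe sets near background and shared probes limit what small differences show.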
